A study of Homo sapiens with 12 samples.

Results

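Genes commonly read as markers of the epithelial or the mesenchymal state were followed in Huh7 cells, a human hepatocellular carcinoma (HCC) line, after knockdown of FAM111B. The members were the rows of the deposited Huh7 table whose gene name was one of a fixed list of 10, out of 60666 genes listed. Of these, KRT8, KRT18, KRT19, CDH1 and TJP1 (5 genes) belong to the epithelial side and CDH2, VIM, SNAI2, ZEB1 and ZEB2 (5 genes) to the mesenchymal side. The study asked how the transcriptome of HCC cells changes when FAM111B is silenced. RNA was sequenced from 3 control libraries and 3 shFAM111B libraries of Huh7, and 6 further libraries of Hep3B cells were not analysed here. The shFAM111B cells carried a lentiviral short hairpin RNA against FAM111B and the controls a lentiviral control sequence, and per the study's methods both were selected in puromycin for stable expression. Cells of both groups were grown in high-glucose DMEM with foetal bovine serum, penicillin and streptomycin. The sources used here do not say whether the 3 libraries of a group came from separate transductions or from one selected population, so p-values measure the spread between these libraries, which may be technical.

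Epithelial cells are held together by adherens and tight junctions and are stiffened by keratin filaments, which form from one type I and one type II keratin. In epithelial to mesenchymal transition (EMT), transcription factors of the SNAI and ZEB families bind short E-box sequences in DNA and repress epithelial genes, E-cadherin among them, while N-cadherin and the filament protein vimentin become more abundant. Hepatocytes normally make keratins 8 and 18, bile duct cells also make keratin 19, and HCC cell lines often express markers of both states at once. In bulk RNA, fewer cells expressing a gene and less RNA per cell cannot be told apart.

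The targeted gene was examined first. FAM111B (ENSG00000189057, chromosome 11, positions 59107185 to 59127410 in GRCh38), a protease gene, was at 7.84, 8.29 and 7.99 TPM (transcript abundance) in control replicates 1, 2 and 3 and at 0.96, 1.13 and 0.84 TPM in shFAM111B replicates 1, 2 and 3. TPM divides the reads of a gene by its length and scales each library to the same total, so it is a relative measure that keeps no sequencing depth. The log2 fold change of FAM111B, taken here and below as shFAM111B minus control on log2(TPM + 1), was -2.20 (SE 0.113, adjusted p = 6.09e-06), so every library matched its label. Hepatocyte markers were abundant in every library, as their sum of 29584 to 29659 TPM in the controls and 47335 to 54142 TPM in the shFAM111B libraries shows. AFP alone went from a mean of 7274 to 23062 TPM, while ALB went from 6444 to 4161 TPM. Of the 10 hepatocyte markers 4 were called higher (AFP, APOA1, APOA2 and TTR) and 2 lower (APOB and HNF4A) at the threshold given below. At that threshold 6.77% of all tested genes were called higher and 23.7% lower. ALB (-0.63), FGB (-0.73), AHSG (-0.76) and SERPINA1 (-0.29) were below their controls by less than 2-fold. The 8 fibroblast and stellate markers summed to 9.72 to 12.05 TPM in the controls and 15.66 to 21.28 TPM in the shFAM111B libraries, with THY1 at 0 in all of them and 1 of 3 tested genes, LUM, higher. The 8 endothelial and immune markers summed to 278 to 285 TPM and 312 to 343 TPM, of which LYZ made up most, with KDR at 0 and none of 3 tested genes past the threshold. The part of these marker shifts in the results below was not tested.

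Genes were tested when at least 3 libraries reached 1 TPM, and a gene was called higher or lower at a fold change of at least 2 with an adjusted p under 0.05 over all 14394 genes tested. Over all of these, 974 genes (6.77%) were called higher and 3406 (23.7%) lower, 30.4% in all, and the median log2 fold change was -0.36. Under 4 other scalings of the libraries that median lay between -0.03 and 0.17. The change of each tested member is therefore also given relative to the median or under some or all of those scalings. Changes of other genes are mostly given for the deposited TPM only. Of the 10 members 8 passed the filter, of which KRT19 was called higher and TJP1, CDH2 and ZEB1 lower. The other 4, KRT8 and KRT18 above their controls and CDH1 and VIM below, had an adjusted p under 0.05 but moved by less than 2-fold. An adjusted p under 0.05 with no limit on the fold was reached by 72% of all tested genes, and groups that did not overlap were seen in 75.2% of them, as in the 8 tested members. SNAI2 and ZEB2 stayed below the filter. Both the epithelial and the mesenchymal side had tested members below their controls, and the 3 members above their controls were the keratins. An exact permutation test of 3 against 3 libraries cannot give a two-sided p below 0.1, so p-values come from the fit across all genes.

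**Figure D1:**
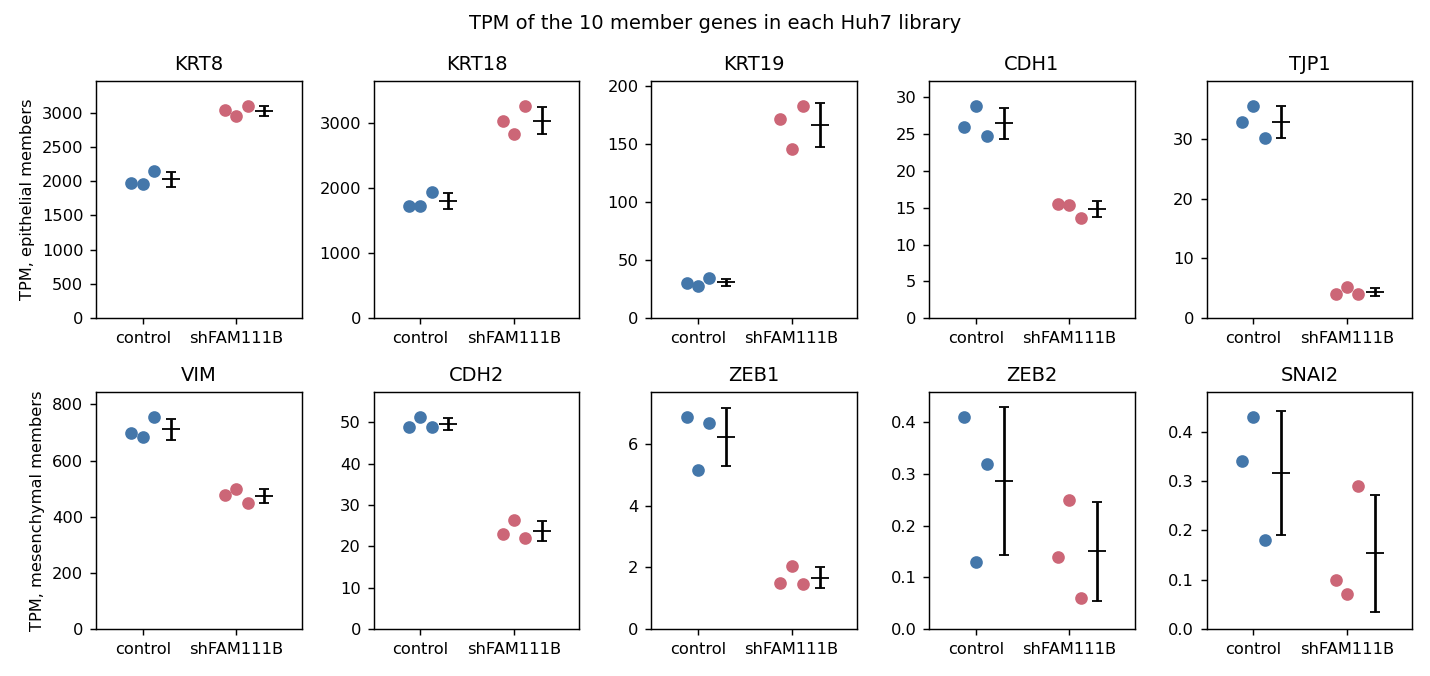
TPM of each member in each library on linear axes starting at 0, with the 5 epithelial genes in the upper row and the 5 mesenchymal genes in the lower. Dots are libraries (replicates 1 to 3 from left to right, control in blue and shFAM111B in red) and bars beside them are mean ± SD (n = 3). The groups are apart for all members except ZEB2 and SNAI2, whose values are all under 0.5 TPM.

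KRT19 was the member with the largest rise. It encodes the small type I keratin 19 of bile duct and progenitor cells and lies on chromosome 17 (ENSG00000171345, 41523617 to 41528308, minus strand). It was at 30.61, 28.08 and 34.27 TPM in the controls and at 171.12, 145.35 and 182.14 TPM in the shFAM111B libraries. The means were 31.0 ± 3.11 (SD, n = 3) and 166.2 ± 18.9 TPM (SD, n = 3), a 5.36-fold higher mean, and each shFAM111B library was far above each control. Its log2 fold change was 2.38 (SE 0.105, adjusted p = 3.91e-06), which placed it 111th from the highest of the 14394 tested genes. The change was 2.75 relative to the median gene, 2.56 to 2.92 under the 4 other scalings and 2.12 once the dependence on transcript length and expression level had been taken out by a smooth fit. Other markers of bile duct cells did not all move with KRT19. Their 8 genes summed to 555 to 579 TPM in the controls and 429 to 470 TPM in the shFAM111B libraries. CD24 made up most of these sums, with means of 439 and 347 TPM, and its change was 0.02 relative to the median gene. Of 6 tested, CFTR, a chloride channel, was called higher and SOX9, a transcription factor, lower, and KRT7 was under 1 TPM. CFTR was at a mean of only 1.22 TPM in the controls. SOX9 was short of 2-fold with the length and expression trend removed (-0.86) and under most of the other scalings.

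KRT8 and KRT18 encode the type II and type I keratins that pair in simple epithelia, and they are neighbours on chromosome 12 (ENSG00000170421, 52897187 to 52949954, minus strand, and ENSG00000111057, 52948871 to 52952901, plus strand). KRT8 was at 1974.77, 1954.46 and 2147.14 TPM in the controls and 3038.98, 2950.48 and 3090.05 TPM after knockdown. KRT18 went from 1729.49, 1728.6 and 1949.95 TPM to 3034.15, 2838.92 and 3261.5 TPM. Both were above their controls in every shFAM111B library, though by less than 2-fold. The log2 fold change was 0.58 for KRT8 (95% interval 0.46 to 0.70, adjusted p = 4.82e-05) and 0.76 for KRT18 (0.59 to 0.93, adjusted p = 7.33e-05). Whether they count as called depended on the scaling. KRT8 ranged from 0.31 to 1.11 and KRT18 from 0.41 to 1.29 over the 4 other scalings, and both stayed above 0 in all of them. With that dependence taken out they were at 0.43 and 0.44.

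The ratio of KRT8 to KRT18 within a library, which scaling by one factor per library leaves unchanged though quantile normalization does not, was 1.14, 1.13 and 1.10 in the controls and 1.00, 1.04 and 0.947 after knockdown. In the deposited TPM, KRT18 thus gained slightly on its partner after knockdown, and the groups did not overlap. With the length and expression trend removed, both genes changed nearly alike (0.43 for KRT8 and 0.44 for KRT18). The ratio of KRT19 to KRT18, chosen after the values were seen, was 0.0177, 0.0162 and 0.0176 in the controls and 0.0564, 0.0512 and 0.0558 after knockdown. KRT19 therefore gained on KRT18 by 1.67 on the log2 scale while remaining a small share of the keratin mRNA. The summed TPM of the 3 keratins was 3735, 3711 and 4131 in the controls and 6244, 5935 and 6534 in the shFAM111B libraries.

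Keratin reads can be shared with copies of these genes. The deposited table lists 51 annotated pseudogenes of KRT8, which summed to 2.62 to 4.12 TPM in the controls and 5.05 to 6.7 TPM after knockdown. The 67 pseudogenes of KRT18 summed to 1.23 to 2.09 and 2.84 to 3.14 TPM, and the 5 of KRT19 were listed at 0 in every library. These sums are small beside the parent genes. Exons of KRT8 and KRT18 also overlap over 525 bases on opposite strands in GENCODE v29, and the strand setting of the read counting is not given in the sources used here. Values of this pair are uncertain to that extent.

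TJP1 had the largest fall of the members. It encodes ZO-1, the scaffold that ties tight junction proteins to actin, and lies on chromosome 15 (ENSG00000104067, 29699367 to 29968865, minus strand). It was at 32.9, 35.45 and 30.15 TPM in the controls and at 4, 5.2 and 4.04 TPM in the shFAM111B libraries, with means of 32.8 ± 2.65 (SD, n = 3) and 4.41 ± 0.682 TPM (SD, n = 3). The control mean was 7.44 times that of the knockdown, and no shFAM111B library came near a control. Its log2 fold change was -2.65 (SE 0.115, adjusted p = 3.70e-06), 83rd from the lowest of all tested genes. It was -2.28 to -2.12 under the 4 other scalings and -1.70 with the length and expression trend removed, past 2-fold in each case.

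CDH1 encodes E-cadherin, the adhesion receptor of epithelial adherens junctions, and lies on chromosome 16 (ENSG00000039068, 68737225 to 68835548, plus strand). Its values were 25.93, 28.74 and 24.69 TPM in the controls and 15.45, 15.36 and 13.54 TPM after knockdown, without overlap. The log2 fold change was -0.80 (95% interval -1.01 to -0.59, adjusted p = 1.50e-04) and -0.40 to -0.27 under the 4 other scalings. With the length and expression trend removed it was -0.10 with an adjusted p of 0.356, which did not pass the threshold. The ratio of TJP1 to CDH1, chosen after the values were seen, was 1.27, 1.23 and 1.22 in the controls and 0.259, 0.339 and 0.298 after knockdown. The tight junction scaffold fell more than the cadherin in every shFAM111B library, by 2.06 on the log2 scale.

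CDH2 encodes N-cadherin, the cadherin of mesenchymal and neural cells that hepatocytes also carry, on chromosome 18 (ENSG00000170558, 27950966 to 28177446, minus strand). It was at 48.75, 51.23 and 48.86 TPM in the controls and at 22.94, 26.44 and 21.88 TPM after knockdown. N-cadherin was thus lower in every knockdown library, as E-cadherin was. Its log2 fold change was -1.04 (SE 0.0800, adjusted p = 2.86e-05), close to the 2-fold limit. Without shFAM111B replicate 3 it was -0.98 and no longer called, and the 4 other scalings gave -0.66 to -0.50. The ratio of CDH2 to CDH1, the cadherin switch often quoted in EMT, was 1.88, 1.78 and 1.98 in the controls and 1.48, 1.72 and 1.62 after knockdown. N-cadherin mRNA stayed above E-cadherin mRNA in all 6 libraries, and the ratio was lower after knockdown by 0.23 on the log2 scale.

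VIM encodes vimentin, the intermediate filament of mesenchymal cells, on chromosome 10 (ENSG00000026025, 17228259 to 17237593, plus strand). It was at 696.7, 684.26 and 754.48 TPM in the controls and 477.08, 498.58 and 448.19 TPM after knockdown. All shFAM111B libraries were below all controls, by less than 2-fold. The log2 fold change was -0.58 (95% interval -0.72 to -0.44, adjusted p = 9.65e-05). It depended strongly on the scaling. Quantile normalization gave -0.96 and centring each library on its median gave -0.05 (adjusted p = 0.469), and median-of-ratios scaling gave -0.13 (adjusted p = 0.0904). The ratio of VIM to KRT18 in a library is unchanged by scaling with one factor per library, though not by quantile normalization, and in the deposited TPM it was 0.403, 0.396 and 0.387 in the controls and 0.157, 0.176 and 0.137 after knockdown. Relative to keratin 18 mRNA, vimentin mRNA was lower by 1.34 on the log2 scale.

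ZEB1 and ZEB2 encode zinc-finger repressors of epithelial genes, and SNAI2 encodes SLUG, a repressor of the same E-box sequences. ZEB1 (ENSG00000148516, chromosome 10, 31318495 to 31529814, plus strand) was at 6.87, 5.15 and 6.67 TPM in the controls and at 1.48, 2.05 and 1.45 TPM after knockdown, again without overlap. Its log2 fold change was -1.44 (SE 0.154, adjusted p = 1.33e-04). With a pseudocount of 0.1 it was -1.85, since a pseudocount of 1 understates changes of genes at low TPM. Centring each library on its median gave -0.91 and removal of the length and expression trend -0.68, both short of the 2-fold limit.

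ZEB2 (ENSG00000169554, chromosome 2, 144364364 to 144524583, minus strand) was at 0.41, 0.13 and 0.32 TPM in the controls and 0.14, 0.25 and 0.06 TPM after knockdown. SNAI2 (ENSG00000019549, chromosome 8, 48917604 to 48921740, minus strand) was at 0.34, 0.43 and 0.18 TPM and at 0.1, 0.07 and 0.29 TPM. The groups overlapped for both genes and neither was tested. As TPM hold no depth, how many reads lie behind these values is unknown, and no difference can be read from them. The ratio of ZEB2 to ZEB1 was 0.0597, 0.0252 and 0.0480 in the controls and 0.0946, 0.122 and 0.0414 after knockdown, with overlapping groups. ZEB1 was thus the one member factor that Huh7 cells expressed above 1 TPM.

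Antisense genes overlap both VIM and ZEB1. VIM-AS1 was at 1.01 to 2.48 TPM in the controls and 0.89 to 1.08 TPM after knockdown, and ZEB1-AS1 at 0.59 to 3.7 and 0.77 to 1.51 TPM. Their exons share 641 bases with those of VIM and 366 bases with those of ZEB1 on the other strand, and after knockdown the highest value of ZEB1-AS1, 1.51 TPM, exceeded the lowest of ZEB1, 1.45 TPM, so the values of ZEB1 are uncertain to that extent.

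Members of the SNAI and ZEB families recognise the E-box CAGGTG, read as CACCTG on the other strand, one form of the general E-box CANNTG. RefSeq promoter windows (GRCh38.p14, 250 bases before to 50 after a start site) were read for 6 of the 10 members, KRT8, TJP1, CDH2, VIM, ZEB1 and ZEB2, which have 16 windows between them. Of all 35116 windows in that table, 68.7% held CANNTG and 20.6% held CAGGTG or CACCTG on either strand. Windows of 3 members below their controls are printed 5′ to 3′ on the gene's strand with every CANNTG in capitals, to show a window with several such E-boxes, one with a single E-box and one with none. The ZEB1 window is chr10:31318966-31319265, chosen as the one of its 7 windows with the most CAGGTG or CACCTG, the TJP1 window is chr15:29969000-29969299 and the VIM window is chr10:17227991-17228290.
ZEB1: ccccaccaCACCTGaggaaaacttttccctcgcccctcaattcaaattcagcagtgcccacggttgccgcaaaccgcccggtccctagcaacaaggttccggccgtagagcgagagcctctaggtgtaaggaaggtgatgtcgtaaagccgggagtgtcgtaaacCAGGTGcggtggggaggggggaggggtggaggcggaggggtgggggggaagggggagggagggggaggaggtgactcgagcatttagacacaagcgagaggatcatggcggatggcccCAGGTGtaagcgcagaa
TJP1: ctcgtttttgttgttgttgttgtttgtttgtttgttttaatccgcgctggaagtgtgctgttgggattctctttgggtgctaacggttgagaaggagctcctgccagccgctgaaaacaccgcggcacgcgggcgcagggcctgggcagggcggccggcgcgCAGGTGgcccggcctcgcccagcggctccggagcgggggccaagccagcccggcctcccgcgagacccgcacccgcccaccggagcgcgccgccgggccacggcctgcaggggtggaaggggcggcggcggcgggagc
VIM: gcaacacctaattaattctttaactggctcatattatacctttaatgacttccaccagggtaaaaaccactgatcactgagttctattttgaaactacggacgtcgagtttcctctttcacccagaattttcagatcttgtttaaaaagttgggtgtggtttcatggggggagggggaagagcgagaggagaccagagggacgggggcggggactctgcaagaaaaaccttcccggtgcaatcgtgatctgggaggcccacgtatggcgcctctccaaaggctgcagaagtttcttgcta
The ZEB1 window held 3 matches, whose first bases lay at -242, -85 and 34 relative to the start site, all of the form CAGGTG or CACCTG. The TJP1 window held 1 match, a CAGGTG with its first base at -88, and the VIM window held none. A match describes these letters only and does not show a bound site. The other 3 windows of TJP1 held no CANNTG, and neither did 1 of the 2 windows of CDH2. All 3 members printed were below their controls, with 3, 1 and 0 matches in the windows printed. The other windows of ZEB1 held 0 to 3 matches. The window of KRT8, a member above its controls, also held 3 CANNTG matches, none of them CAGGTG or CACCTG.

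**Figure D2:**
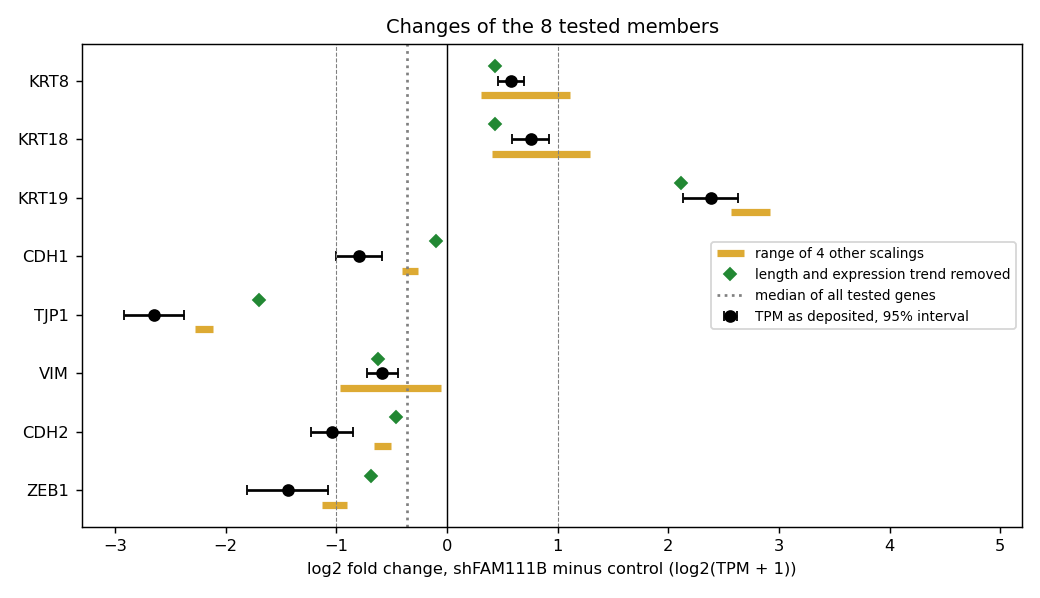
Log2 fold change of the 8 tested members, shFAM111B minus control, on the log2(TPM + 1) scale. Black dots and bars are the deposited TPM with 95% intervals, yellow bars span the 4 other scalings, green diamonds have the length and expression trend taken out, dashed lines mark 2-fold and the dotted line is the median of all tested genes (-0.36). No member crosses 0 under any of these settings, while VIM and CDH1 come close to it.

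Transcript length moved with the changes over all genes, and the members differ in length. The median log2 fold change was 0.17 for genes whose longest transcript has over 1000 to 2000 nt (interquartile range -0.31 to 0.65), -0.31 for over 2000 to 4000 nt (-0.85 to 0.18) and -0.78 for over 4000 to 8000 nt (-1.27 to -0.23). KRT19 at 1390 nt and KRT18 at 2088 nt and KRT8 at 2862 nt lay above the interquartile range of their classes. VIM (2666 nt), CDH2 (4332 nt) and CDH1 (4889 nt) lay within it. ZEB1 (6267 nt) and TJP1 (7950 nt) lay below it. The 3 members above their controls are thus among the 4 shortest of the 8, with VIM as the exception, and the 4 longest are all below. Once the length and expression trend was taken out, KRT19 and TJP1 were still called and CDH2 (-0.46) and ZEB1 (-0.68) were not.

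**Figure D3:**
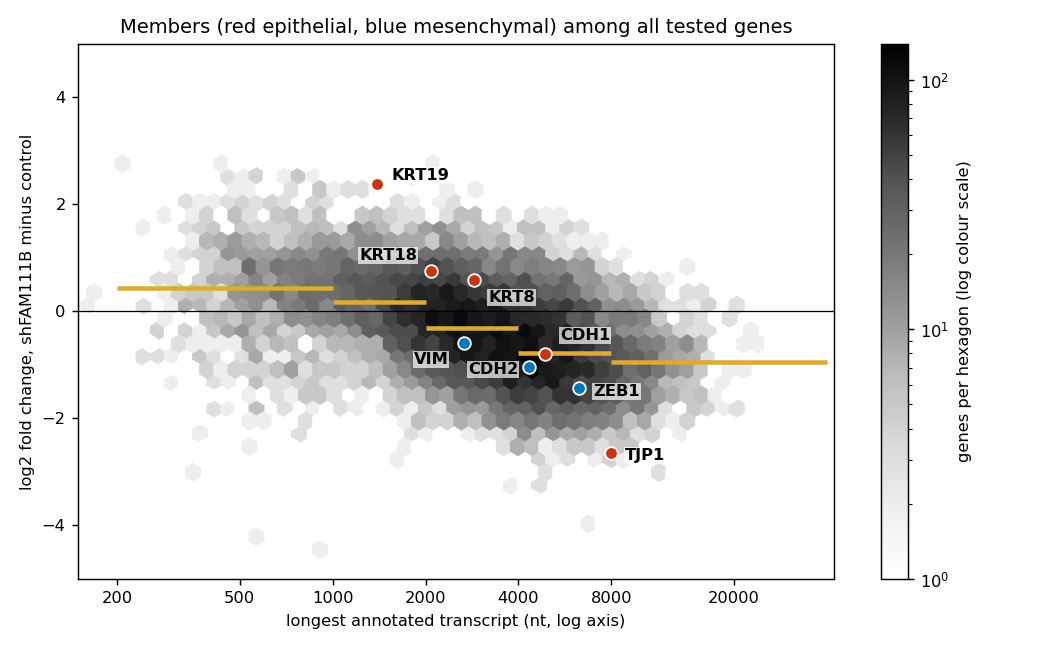
Longest annotated transcript (nt, log axis) against log2 fold change (shFAM111B minus control) for the tested genes with a length, as hexagons shaded by gene count, with epithelial members in red and mesenchymal members in blue. Yellow lines are the median of each length class, from 0.43 for the shortest to -0.94 for the longest. KRT19 lies far above and TJP1 far below the line of its class, and CDH1 lies on it.

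The order of the members by level also changed. In the controls the order of mean TPM was KRT8, KRT18, VIM, CDH2, TJP1, KRT19, CDH1, ZEB1, SNAI2 and ZEB2. TJP1 and KRT19, KRT19 and CDH1, and SNAI2 and ZEB2 overlapped in their libraries, so these neighbours did not differ beyond their spread. After knockdown it was KRT18, KRT8, VIM, KRT19, CDH2, CDH1, TJP1, ZEB1, SNAI2 and ZEB2, in which KRT18 and KRT8 overlapped, as did SNAI2 and ZEB2. KRT19 had passed CDH2, and TJP1 had dropped behind CDH1.

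For each tested member, the gene with the closest course over the 6 libraries was sought among about 7430 tested genes whose mean over the libraries reached 10 TPM, as the smallest Euclidean distance between centred log2(TPM + 1) values. With 3 libraries a side this mostly finds genes with a like fold change. The closest genes were MRPL18 for KRT8 (distance 0.0586), STK19 for KRT18 (0.0446), SLPI for KRT19 (0.236), PPP4R3A for CDH1 (0.0623), BOD1L1 for TJP1 (0.123), SMARCD1 for CDH2 (0.0786), CYB5R3 for VIM (0.0682) and DLD for ZEB1 (0.176). KRT19 was the hardest to match, and its closest gene SLPI, a secreted protease inhibitor of epithelia, went from 9.05, 9.55 and 11.32 TPM to 58.2, 56.21 and 68.06 TPM. KRT8 was the 264th closest gene to KRT18, at a distance of 0.238.

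The members were set beside 8 lists of related genes. Each count of calls in them stands against 6.77% of all tested genes called higher and 23.7% called lower. Where few genes of a list were tested, its count does not describe the list. Where a list had 5 or fewer calls in a direction, its genes are named although a few were not picked by the naming rule but after their values were seen. Some genes that were not called are named too, also after their values were seen. Of 21 tight junction, adherens junction and desmosome genes, 7 were called lower and 1 higher, with a median of -0.87 beside -0.36 for all tested genes, or -0.22 with the length and expression trend removed. CLDN1, the barrier claudin of hepatocytes, went from 476.07, 438.25 and 442.72 TPM to 95.95, 107.16 and 91.03 TPM (log2 fold change -2.20, SE 0.0699, adjusted p = 2.40e-06). DSP, the desmosomal linker of keratin filaments, went from 36.8, 37.92 and 37.77 TPM to 8.34, 8.93 and 7.49 TPM (-2.06, adjusted p = 2.95e-06). CTNNB1, the beta-catenin that binds cadherin tails, went from 258.18, 251.29 and 253.43 TPM to 93.08, 103.95 and 89.72 TPM (-1.41, adjusted p = 3.91e-06), and was short of 2-fold with the length and expression trend removed (-0.95) and under 3 of the 4 other scalings. The one gene called higher was TJP3, the ZO-3 relative of TJP1, with a mean of 4.98 ± 1.40 (SD, n = 3) in the controls and 16.8 ± 2.95 TPM (SD, n = 3) after knockdown (1.59, adjusted p = 2.87e-04). The desmosomal linker DSP and the cadherin partner CTNNB1 were thus lower beside both member cadherins, and TJP1 and TJP3 moved in opposite directions.

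Keratins and cadherins outside the member list mostly stayed below the filter. Of 18 other keratins 3 were tested, and KRT23 was called lower, from 13.05, 13.21 and 11.93 TPM to 3.61, 3.52 and 3.4 TPM (-1.61, adjusted p = 8.16e-06), whereas KRT10 (0.58) and KRT222 (-0.77) did not reach 2-fold. KRT10 was at 0.96 to 1.11 under the 4 other scalings, so whether it counts as called depended on the scaling. KRT81 was listed at 0 in every library. KRT23 thus went the opposite way to KRT19. Of 15 other cadherins 5 were tested, and CDH8 was called lower, from 6.62, 5.55 and 4.58 TPM to 1.16, 0.9 and 0.61 TPM (-1.80, adjusted p = 8.10e-05), a call lost with the length and expression trend removed (-0.90). CDH17, from a mean of 16.25 to 30.37 TPM (0.86), and CDH24, from 3.82 to 7.89 TPM (0.88), were above their controls but short of 2-fold. Both passed 2-fold under the 4 other scalings and with that trend removed (1.40 and 1.37). CDH4 (-0.65) and CDH6 (-0.86) were below their controls. CDH11 and CDH13 were listed at 0 throughout. Of 10 nuclear lamins and cytolinkers of intermediate filaments, 4 were lower and none higher, beside 23.7% and 6.77% of all tested genes. The lower genes were PLEC, the plectin that links filaments to other structures (-1.66), EPPK1, epiplakin, which binds keratins (-1.92), LMNB1, lamin B1 (-1.26), and DST, dystonin (-1.01). With the length and expression trend removed none of the 4 was called lower and the list median went from -0.60 to 0.24. PLEC went from 20.3, 20.45 and 23.53 TPM to 6.58, 5.93 and 5.75 TPM.

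Among regulators outside the member list, 5 were called lower and 1 higher, beside 23.7% and 6.77% of all tested genes. Of 11 regulators of epithelial identity 5 were tested, and 2 were called lower and none higher. GRHL1, a grainyhead factor, went from 17.82, 15.9 and 17.79 TPM to 4.14, 4.19 and 3.53 TPM (-1.88, adjusted p = 6.73e-06), and KLF4, a Krüppel-like factor, fell by 1.68 on the log2 scale. The host gene of a miR-200 cluster, MIR200CHG, was listed at 0. Of 14 other EMT transcription factors 6 were tested, of which SOX4 (-1.70), SOX9 (-1.37) and TCF4 (-1.56) were lower and FOXQ1 (1.41), from a mean of 2.38 to 7.98 TPM, was higher. With the length and expression trend removed SOX4 (-0.97), SOX9 (-0.86) and TCF4 (-0.68) were not called, and SOX9 was also short of 2-fold under 3 of the 4 other scalings. SNAI1, which encodes SNAIL, was at -0.27 with an adjusted p of 0.0550 and above 0 under the 4 other scalings. GSC, TWIST1 and TWIST2 were listed at 0 in every library. In the deposited TPM, factors assigned to the epithelial and to the mesenchymal side were both among those called lower.

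Mesenchymal and matrix genes moved in both directions. Of 22 genes 13 were tested, with 3 called higher, 2 lower and a median of 0.14, or 0.82 with the length and expression trend removed. The medians of all tested genes were -0.36 and -0.06. Over the alternative settings 2 to 5 genes of the list were called higher and 1 to 4 lower. COL1A2 (1.35) and LOX (1.11) were called higher with that trend removed. TAGLN, which encodes the actin-binding transgelin, went from 16.31, 17.21 and 19.26 TPM to 149.3, 134.61 and 157.45 TPM (2.99, SE 0.0848, adjusted p = 1.89e-06), a larger rise than that of KRT19. SPARC, a matrix glycoprotein, went from 12.26, 13.09 and 15.67 TPM to 54.26, 51.34 and 46.05 TPM (1.82, adjusted p = 9.22e-06), and S100A4, a calcium-binding protein, was also higher (2.48). FN1, fibronectin, was among those called lower (-1.16, or -0.72 with the length and expression trend removed). Lower values of VIM and CDH2 thus stood beside higher values of TAGLN, SPARC and S100A4, and COL5A1, MMP9, POSTN and THY1 were listed at 0.

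TGF-beta is a well known inducer of EMT, with SMAD3 and SMAD4 as its transcription factors. Of 18 genes of this pathway 17 were tested, with 10 called lower and 1 higher and a median of -1.13, or -0.47 with the length and expression trend removed. TGFBR1, the type I receptor, went from 20.72, 18.41 and 17.46 TPM to 3.6, 3.67 and 3.34 TPM (-2.13, adjusted p = 4.21e-06). SMAD3 went from 34.06, 32.4 and 33.5 TPM to 9.15, 9.15 and 9.05 TPM (-1.76, adjusted p = 2.63e-06), and SMAD4 fell by 1.58 on the log2 scale. ID3, an inhibitor of helix-loop-helix factors, was the one called higher (1.02). It was no longer called without control replicate 1, control replicate 2 or shFAM111B replicate 3, each of which left no gene of the list higher, and other settings gave up to 3. Not every SMAD was lower, as SMAD6, an inhibitory SMAD, was at 0.29. TGFB1, from a mean of 21.9 to 41.1 TPM (0.88), and ID1, from 514 to 954 TPM (0.89), were above their controls but short of 2-fold. The number called lower was between 2 and 10 over the alternative settings and was 2 with the length and expression trend removed. Under that setting SMAD3 (-0.94) and SMAD4 (-0.69) were not called and TGFBR1 (-1.26) was called lower. TGFB1 (1.18) and SMAD6 (1.05) were called higher under the same setting.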

How the data were processed

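RNA of Huh7 control and shFAM111B cells was sequenced after poly(A) selection (3 libraries each). The authors deposited one table of TPM for 60666 genes with group means and their own comparison (fold changes as ratios, the log2 fold changes made from them, and p-values), which were not used. The submitters' processing notes name RSEM, DESeq2 and hg38, with versions not given in the sources used here. The study's methods name another library kit (TruSeq) than the labels (a stranded mRNA kit). Summed TPM were 978634 to 997094 per library. As TPM keep no depth, counting precision is unknown and no count test was run.

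Values were analysed as log2(TPM + 1) with limma 3.58.1 (lmFit, eBayes with trend, two-sided) in R 4.3.3, for the 14394 genes that reached 1 TPM in 3 or more libraries. A gene was called at a change of 2-fold or more with a Benjamini-Hochberg adjusted p under 0.05 over all tested genes. Every adjusted p in the text comes from this fit unless another setting is named. The fit was run on simulated data with independent normal noise, which held neither the length dependence nor the wide shift seen here. A first bound on the number of changed genes recovered was missed and then loosened. Groups came from the labels. Within groups, libraries correlated at 0.969 to 0.984 and between groups at 0.865 to 0.883 (Pearson, log2 scale), and under 1% of values were identical in any pair.

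Positions, gene types and longest transcripts come from GENCODE v29 (GRCh38), which holds 58420 of the listed genes, and promoters from RefSeq (GRCh38.p14). Length and expression trends were removed by loess (span 0.75) per library over 14263 genes (99.1% of those tested). Members, gene lists and tests were chosen with earlier results of these data known. Named genes are FAM111B, the members, the nearest gene to each member, and from each related list at most 3 called genes with the smallest adjusted p, without overlap and with a mean of at least 5 TPM in the higher group. The values of 1 gene that this rule names are not reported here. Alternatives were other filters, pseudocounts, scalings, gene sets, thresholds and variance models, a replicate block, and each library left out in turn. The table gives no gene types, so the protein-coding alternative used GENCODE and was chosen after seeing the data.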

Additional observations from a re-analysis of the deposited data

How the results depend on the processing

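No tested member changed direction under any of the alternatives run. Of 144 alternative values for the 8 members, 129 kept their side of the call, 9 fell short of it (CDH2 in 7, ZEB1 in 2) and 6 newly passed it (KRT18 in 3, KRT8 in 2, CDH1 in 1, with mitochondrial-chromosome genes removed). KRT19 and TJP1 were called in every alternative. Of 340 values for 19 named genes of the related lists, 320 kept their call, 20 (10 genes) fell short and none reversed. Of 288 counts of calls in the related lists 240 stayed within 1.5 times their main count and 48 moved further. CDH2 was also short of the limit with protein-coding genes only (-0.98).

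Genes called higher and lower over the whole table depended on the scaling. The main 974 higher and 3406 lower became 2016 and 1792 with median-of-ratios scaling, 1884 and 1905 with upper-quartile scaling, 1673 and 1846 with quantile normalization, and 2574 and 1305 with centring on the median. Higher calls were 22.2% of calls in the main fit and 52.9%, 49.7%, 47.5% and 66.4% under these scalings, 46.6% with the length and expression trend removed and 14.1% without mitochondrial-chromosome genes. Removing the length and expression trend left 1438 lower calls and 2 members called. With at least 1 TPM in every library 634 genes were higher. With no limit on the fold 3044 were higher and 7326 lower, with 8 members. The causes of these shifts were not tested. Leaving out one library in turn gave 904 to 1073 higher, 3360 to 3545 lower and 3 to 4 members called. 

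With the replicate number as a block, 983 genes were higher, 3402 lower and 4 members called, so it changed no member's call. Deviations of same-numbered libraries correlated at 0.054, 0.0349 and 0.0908, all under 0.1, and shFAM111B replicate 2 correlated best with control replicate 1 (0.0442), so the numbers were not taken to pair the libraries. FAM111B, CDH8 and EPPK1 have no value where every library must reach 1 TPM. Depth is unknown from TPM, which limits SNAI2 and ZEB2 most.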
